A study of Mus musculus with 8 samples.

Results

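The second day of RANKL treatment was examined by setting the 2 arrays of mouse bone marrow-derived macrophages (BMMs) given RANKL for 2 days against the 2 arrays of those given it for 1 day. These are 4 of the 8 arrays of a time course with 2 arrays for each of days 0, 1, 2 and 3. The comparison took in every gene with a detected probe, which was 8663 genes read from the 25697 probes of an Illumina MouseRef-8 v2.0 bead array. The marrow came from femurs and tibias of C57BL/6 mice aged 6 to 8 weeks. It was kept for 16 h in medium with 10% serum and 5 ng/ml M-CSF, the growth factor of macrophages. Cells that stayed afloat were then grown for 3 days in 30 ng/ml M-CSF, and those that attached were the BMMs. In the day 2 and the day 1 groups M-CSF stayed at 30 ng/ml and RANKL was added at 50 ng/ml for that number of days, and the day 0 arrays hold BMMs before RANKL. Cells on M-CSF without RANKL were measured at day 0 and at no later day, so RANKL and culture time cannot be told apart. Whether replicate arrays of 1 day hold RNA of different cultures or mice is not in the labels. The p-values therefore measure only the spread between these arrays, which may be technical.

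RANKL is the ligand of the receptor RANK on macrophages and other precursors, and it turns them into osteoclasts, the large multinucleated cells that resorb bone. RANK signals through the adaptor TRAF6 to NF-kB and AP-1, and these lead to NFATc1, the transcription factor that switches on genes for cell fusion and resorption. A mature osteoclast attaches through a ring of actin, pumps acid onto the bone with the vacuolar proton ATPase (V-ATPase) and releases cathepsin K and other enzymes into the sealed space. These cells hold many mitochondria and no longer divide.

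Day 2 and day 1 arrays were alike in quality. Between 11283 and 11361 probes were detected on each (detection p under 0.05), and the mean signal lay between 758 and 841. Across genes, r was 0.995 between the day 2 arrays, 0.996 between the day 1 arrays and 0.952 to 0.955 between days (genes are not independent replicates). No array stood apart. Levels below are log2 normalised intensities, and differences are day 2 minus day 1 on that scale with the standard error (SE) of the fit. A gene is called when its adjusted p is under 0.05 (limma's moderated test over all 8 arrays, Benjamini-Hochberg over the 8663 genes). An exact permutation test of 2 arrays against 2 cannot go below p = 0.333, so no single gene could be called that way.

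At day 2, 2023 genes were higher than at day 1, which is 23.4% of those tested, and 2169 were lower, which is 25.0%. The remaining 4471 were not called. By at least 2-fold, 630 genes (7.27%) were higher and 559 (6.45%) lower. The median difference over all genes was -0.02, and the 10th and 90th percentiles were -0.81 and 0.83. A share of called members near these background shares is no result about a gene group. The day 2 and day 1 arrays did not overlap in 6510 of the 8663 genes, so a lack of overlap is common. The split depends on the scaling: with each array scaled by its median in place of quantile normalisation, 1542 genes were higher and 2683 lower, so 36.5% of the calls were increases against 48.3% with quantile normalisation. In bulk RNA, fewer cells of a type and less RNA per cell cannot be told apart.

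**Figure D1:**
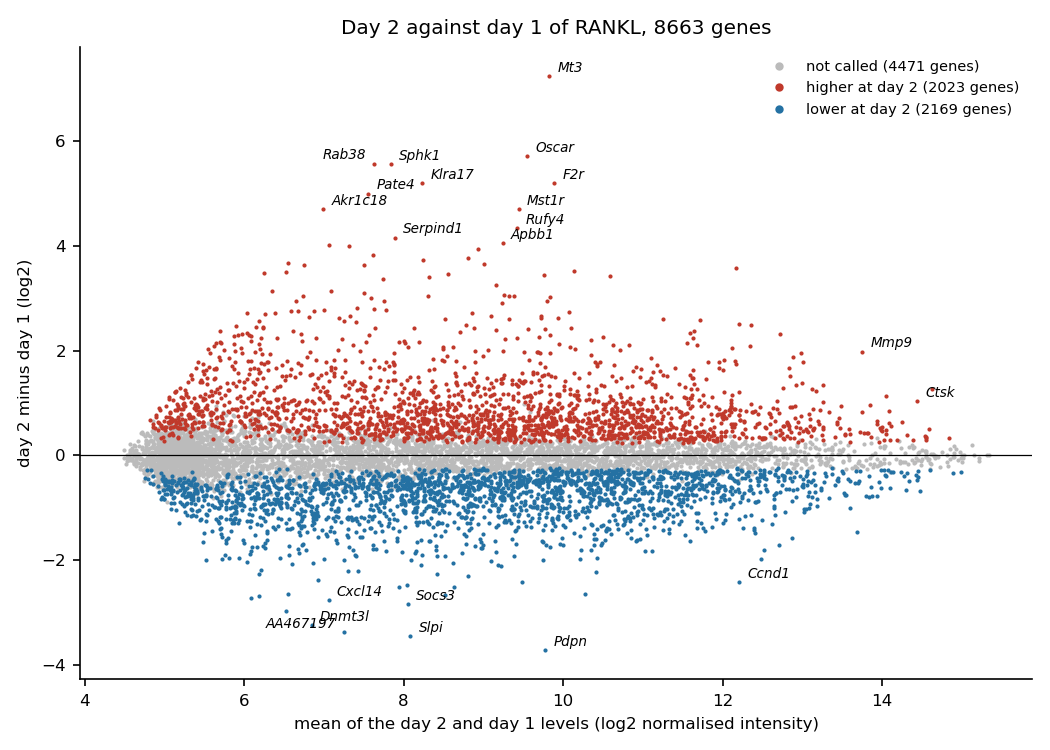
Each point is 1 of 8663 genes, with the mean of its day 2 and day 1 levels on the horizontal axis and day 2 minus day 1 on the vertical axis, both on the log2 scale. The 2023 genes called higher reach a difference of 7.25 (Mt3) and the 2169 called lower reach -3.72 (Pdpn).

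Among the largest increases were a metallothionein and several receptors. Mt3, a metallothionein that binds zinc and copper, stood at 13.42 and 13.48 on the day 2 arrays, against 6.17 and 6.22 on the day 1 arrays. That is a difference of 7.25 ± 0.09, or 152-fold (limma adjusted p = 1.76e-07), and the replicates of a day lay close together. Oscar, a receptor that costimulates osteoclast differentiation, had 12.33 and 12.49 at day 2, against 6.59 and 6.79 at day 1, a rise of 52.6-fold. F2r, the thrombin receptor PAR1, had 12.45 and 12.53 at day 2, against 7.22 and 7.36 at day 1, a rise of 36.7-fold. In each of these genes every day 2 array was far above every day 1 array, and a lack of overlap was a condition for being named here. Klra17 (36.7-fold), an Ly49 family lectin receptor, and Mst1r (25.9-fold), the receptor of macrophage-stimulating protein, followed. Next came Rufy4 (20.2-fold), which bears on autophagosomes and lysosomes, and Serpind1 (17.9-fold), the thrombin inhibitor heparin cofactor II. Apbb1 (16.7-fold), an adaptor that binds the amyloid precursor protein, and the desmosome protein Pkp2 (16.2-fold) also rose. So did Ckmt1 (15.9-fold), the mitochondrial creatine kinase, and Msi2 (15.3-fold), an RNA-binding protein. The last of the 15 with the largest rises among genes detected on at least 1 day 1 array were Cyb561 (14.2-fold), an electron carrier that regenerates ascorbate, Chac1 (13.6-fold), which degrades glutathione, Cd200 (13.3-fold), a membrane glycoprotein, and Bdh1 (12.6-fold), an enzyme of ketone bodies. Of these, Pkp2 and Ckmt1 were detected on 1 of the 2 day 1 arrays and the others on both.

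A further set was not well above background on either day 1 array and was detected on both day 2 arrays, so only a lower bound of the fold can be given. The bound sets the mean of the brighter day against, on each array of the dimmer day, the lowest detected intensity or the gene's own, whichever is higher. Sphk1, the kinase that makes sphingosine 1-phosphate, was at least 41.7-fold higher (limma adjusted p = 1.12e-06), with 10.61 and 10.63 at day 2. A second probe of Sphk1 was not detected on any of the 4 arrays (0.37 ± 0.39), so the rise rests on 1 probe. Rab38, a small GTPase of lysosome-related organelles, was at least 36.2-fold higher, with 10.26 and 10.57 at day 2. Pate4, a small secreted protein, was at least 28.2-fold higher and Akr1c18, an aldo-keto reductase that inactivates progesterone, at least 17.1-fold higher. The bound was 10.0-fold for Ankrd2, a muscle ankyrin repeat protein, 8.88-fold for Kank1, an adaptor at adhesions, 8.16-fold for Cd83, a surface molecule of activated antigen-presenting cells, and 7.38-fold for Atp1b1, a subunit of the sodium pump. These bounds hold for background-corrected values and the probe used. Over the other settings, among them no background correction and a mean over probes, the fitted log2 difference ran from 2.97 to 5.75 for Sphk1 and from 3.18 to 5.74 for Rab38, and the call was kept in each.

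Known genes of the osteoclast rose together at day 2. Of 31 tested members of an osteoclast function list, 24 were higher (77.4%, against 23.4% of all genes), 4 lower (12.9%, against 25.0%) and 3 not called. The median difference was 1.48, against -0.02 over all genes, and 20 members rose by at least 2-fold. Their summed linear intensity was 225260 to 226900 on the day 2 arrays, against 95489 to 98502 on the day 1 arrays. The sums do not overlap.

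Dcstamp and Ocstamp, known for their part in cell fusion, both rose. Dcstamp, the membrane protein that precursors need to fuse, had 10.65 and 10.92 at day 2, against 7.68 and 7.38 at day 1, a 9.56-fold rise (3.26 ± 0.15, limma adjusted p = 1.6e-05). Ocstamp, its partner in fusion, had 8.30 and 8.22 at day 2, against 5.82 and 5.18 at day 1, a 6.77-fold rise. One of the day 1 values of Ocstamp was not above background, and both day 2 arrays lie well above both. Sirpa, a receptor for Cd47, rose 2.47-fold, while Cd47 itself was not called (0.17 ± 0.12, limma adjusted p = 0.293).

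Members of the list known for acid secretion are given next. Car2, the carbonic anhydrase that supplies protons, had 10.88 and 10.81 at day 2, against 7.89 and 7.71 at day 1, an 8.27-fold rise. Slc4a2, the exchanger that removes bicarbonate from the cell, rose 3.67-fold, with 13.75 and 13.88 at day 2 and 11.98 and 11.91 at day 1. The chloride channel Clcn7 (2.78-fold), its subunit Ostm1 (3.47-fold) and the V-ATPase subunit Tcirg1 (1.79-fold), the a3 subunit that osteoclasts use, were all higher. Slc9b2, a sodium-proton exchanger, rose 5.65-fold, and Snx10, a sorting nexin of vesicle traffic, rose 4.99-fold. Plekhm1, which brings lysosomes to fuse, rose 3.11-fold on the brighter of its probes, with 12.40 and 12.50 at day 2 and 10.85 and 10.78 at day 1. Its other probe was not called (0.58 ± 0.26, limma adjusted p = 0.109).

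Among the enzymes, Acp5, the tartrate-resistant acid phosphatase used to stain osteoclasts, had 10.14 and 10.28 at day 2, against 7.63 and 7.35 at day 1, a 6.61-fold rise. Mmp14, a membrane-bound metalloproteinase, rose 6.02-fold and Mmp9, a gelatinase, 3.95-fold. Ctsk, the collagen-degrading cathepsin K, had 15.01 and 14.91 at day 2, against 13.87 and 13.97 at day 1, a 2.06-fold rise. Its day 2 values lie near the top of the scale, where the brightest probe of each array stands at 15.34, and the part of that limit in the difference was not tested. Ckb, the cytosolic creatine kinase, stood at 15.26 on both day 2 arrays, against 13.96 and 14.03 on the day 1 arrays, also near the top.

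Other receptors and signalling members follow. The tyrosine kinase Src, needed for the ruffled border, rose 2.80-fold and Nfatc1 1.93-fold, with 11.26 and 11.19 at day 2 and 10.18 and 10.38 at day 1 for Nfatc1. Tnfrsf11a, which encodes RANK, was not called (0.27 ± 0.13, limma adjusted p = 0.133), with 9.90 and 9.75 at day 2, against 9.58 and 9.53 at day 1. Calcr, the calcitonin receptor and a mark of the mature osteoclast, had 6.20 and 5.99 at day 2 and was not well above background on the day 1 arrays, which makes it at least 1.81-fold higher. A second Calcr probe, detected on 1 day 2 array, was not called (0.72 ± 0.34, limma adjusted p = 0.125). The integrin subunit Itgav rose 1.63-fold. Its partner Itgb3, whose probe was not well above background on the day 1 arrays, was at least 1.28-fold higher (limma adjusted p = 0.048), and that call was lost in 11 of the 17 other settings in which it was tested. Tyrobp, the adaptor that pairs with TREM receptors, was not called (0.17 ± 0.11).

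The 4 members that fell were Adam8, a membrane protease (3.28-fold lower), Trem2, a lipid-sensing receptor that signals through Tyrobp (2.70-fold lower), Cd44, the hyaluronan receptor (1.44-fold lower), and the tetraspanin Cd9 (1.18-fold lower). Trem2 had 10.97 and 11.16 at day 2, against 12.41 and 12.58 at day 1. The call for Cd9 was lost in 11 of 21 other settings. Atp6v0d2, a defining osteoclast gene, is on the array and was detected on 0 of 8 arrays, so no value is given for it.

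**Figure D2:**
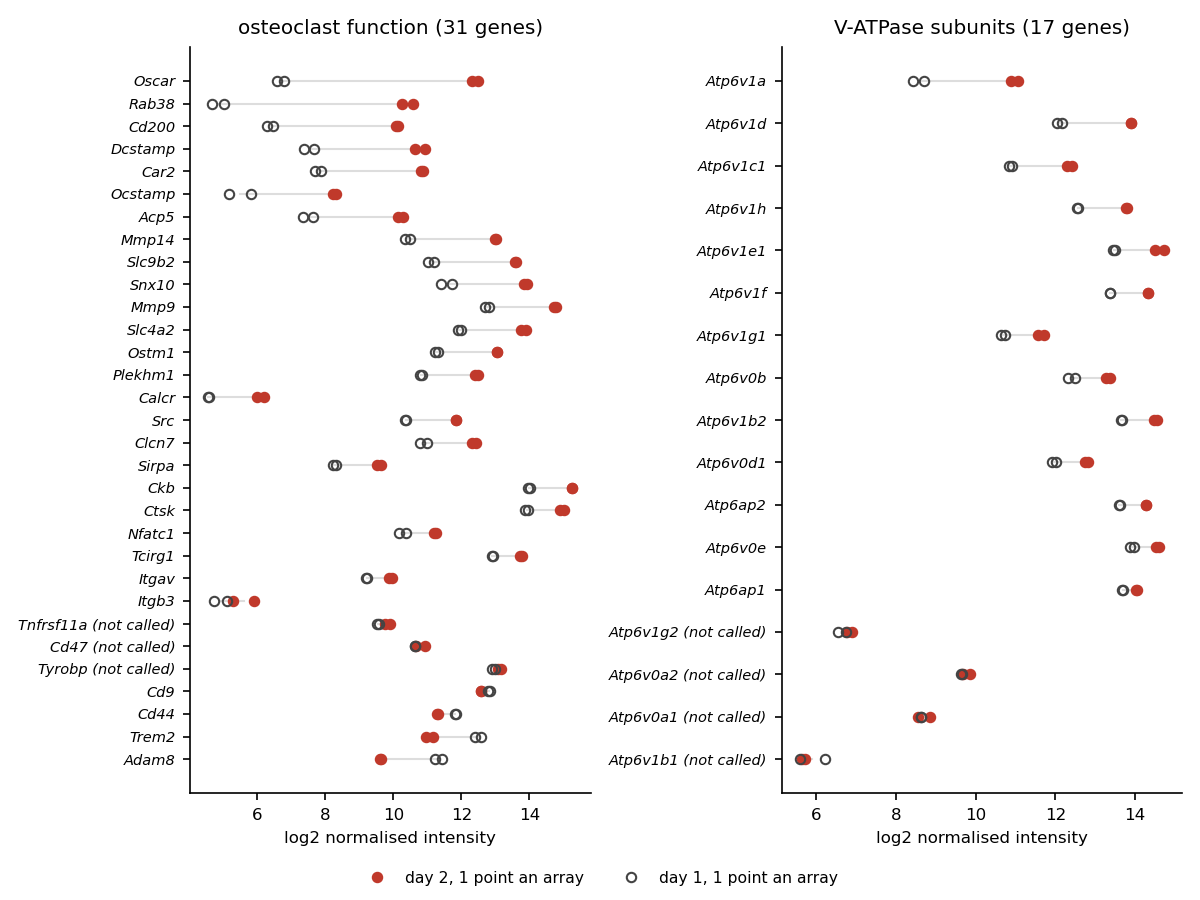
Rows are the 31 tested genes of the osteoclast function list and the 17 of the V-ATPase list, ordered by their difference, and points are the log2 levels of single arrays, filled for day 2 and open for day 1. Points of the 2 days are well apart for Oscar (12.33 and 12.49 against 6.59 and 6.79) and mixed for Atp6v0a1 (8.56 and 8.87 against 8.63 and 8.64).

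The V-ATPase is the rotary proton pump of lysosomes and of the resorbing membrane. Of 17 tested subunits, 13 were higher (76.5%) and 0 lower, and the median difference was 0.85. In the catalytic V1 part, Atp6v1a had 10.89 and 11.06 at day 2, against 8.43 and 8.70 at day 1, a 5.30-fold rise (2.41 ± 0.23, limma adjusted p = 0.000232). Atp6v1d (3.45-fold), Atp6v1c1 (2.78-fold), Atp6v1h (2.34-fold) and Atp6v1e1 (2.21-fold) followed. Their arrays did not overlap between the days, as in 6510 of all 8663 genes. In the membrane part, Atp6v0b rose 1.90-fold, Atp6v0d1 1.77-fold and Atp6v0e 1.56-fold. Subunit isoforms did not all move. Atp6v1b2 rose 1.81-fold, and the alternative isoform Atp6v1b1, which is typical of kidney, was not called (-0.23 ± 0.20). Atp6v0a1 (0.08 ± 0.11) and Atp6v0a2 (0.12 ± 0.11) were not called beside the 1.79-fold rise of their relative Tcirg1. The accessory subunits Atp6ap1 and Atp6ap2 rose 1.28-fold and 1.59-fold, and the call of Atp6ap1 was lost without day 1 replicate 1 or day 2 replicate 1.

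The promoters of the V-ATPase genes are shown because many lysosomal genes carry the letters CACGTG, the core of the element that TFEB and related factors read. RefSeq windows on GRCm38.p6, from 250 bases before to 50 bases after the start of transcription, were searched on both strands. CACGTG was present in 4 of 13 promoters of the V-ATPase list (30.8%) and 14 of 44 of a lysosomal list (31.8%), against 7.15% of all 32851 promoters and 10.1% of those of tested genes. These shares are a description with no test, and a match is not a binding site. Among called lysosomal genes with the match, Ctsl fell by 2.21 on the log2 scale, while Glb1 and Gaa rose by 1.86 and 1.43. The capitals mark the match, which begins 131 bases upstream of the start in Atp6v1a and 36 and 18 bases upstream in Atp6v0b. The Atp6v1a window is chr16:44139210-44139509, minus strand, and the Atp6v0b window is chr4:117887280-117887579, minus strand.
Atp6v1a: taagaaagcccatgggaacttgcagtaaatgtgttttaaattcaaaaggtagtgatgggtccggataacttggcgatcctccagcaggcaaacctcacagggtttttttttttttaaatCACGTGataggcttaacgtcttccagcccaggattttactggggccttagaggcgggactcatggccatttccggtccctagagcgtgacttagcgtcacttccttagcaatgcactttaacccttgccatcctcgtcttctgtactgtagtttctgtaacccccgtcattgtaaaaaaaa
Atp6v0b: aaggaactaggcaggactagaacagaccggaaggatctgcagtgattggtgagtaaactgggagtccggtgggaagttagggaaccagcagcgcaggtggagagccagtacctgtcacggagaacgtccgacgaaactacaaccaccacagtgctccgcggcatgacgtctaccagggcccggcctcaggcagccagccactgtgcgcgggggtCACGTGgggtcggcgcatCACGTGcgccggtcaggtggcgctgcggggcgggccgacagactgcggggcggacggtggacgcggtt

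Lysosomal proteins as a whole did not move in 1 direction. Of 41 tested, 17 were higher (41.5%), 8 lower (19.5%) and 16 not called, with a median of 0.16. Several hydrolases rose: Arsb, the sulfatase that degrades dermatan sulfate, had 13.88 and 14.02 at day 2, against 10.40 and 10.35 at day 1, an 11.9-fold rise. Smpd1, the acid sphingomyelinase, rose 4.41-fold, the beta-galactosidase Glb1 3.62-fold and the peptidase Tpp1 2.97-fold. Ctsl, the cysteine protease cathepsin L, was 4.63-fold lower, with 6.28 and 6.13 at day 2 and 8.52 and 8.31 at day 1. The membrane proteins Scarb2, Lamp1 and Lamp2 fell by 1.27, 0.96 and 0.59 on the log2 scale.

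RANK signalling and osteoclast transcription factors split as well, with 12 of 31 tested genes higher (38.7%), 6 lower (19.35%) and a median of 0.20. Median scaling gave 6 higher. Without day 1 replicate 2 or day 2 replicate 2 the number higher was 7, and the number lower was 3 without day 1 replicate 1 and 2 without day 2 replicate 2. Traf6 had 10.61 and 10.73 at day 2, against 9.25 and 9.45 at day 1, a 2.50-fold rise on its brightest probe. A dimmer detected probe, with means of 5.72 at day 1 and 7.40 at day 2, was also called higher (1.69 ± 0.28, limma adjusted p = 0.00305). Another, brighter than that one with 7.54 at day 1 and 7.70 at day 2, was not called (0.16 ± 0.10). The AP-1 members differed: Jund rose 2.45-fold, whereas Fosl1 was 4.55-fold lower, with 4.84 and 5.40 at day 2, against 7.26 and 7.35 at day 1, and Fos fell by 0.75. The day 2 value of Fosl1 was above background on 1 of the arrays. Tec, a kinase in costimulatory signalling, rose 1.81-fold. Among 13 tested repressors of osteoclast differentiation, 6 fell (46.15%) and 2 rose (15.4%), with a median of -0.31, and fewer fell without day 1 replicate 1. Egr2 was at least 2.51-fold lower and Id1 at least 2.38-fold lower, both being not well above background on the day 2 arrays. Klf4 was 2.59-fold lower and was detected on 1 of the day 2 arrays. Irf8 and Bcl6, both known to hold back osteoclast genes, differed in call: Bcl6 fell by 0.56 and Irf8 was not called (-0.63). Zfp36, which destabilises cytokine mRNA, rose 1.58-fold. Egr1 was called higher (1.51-fold), and that call was lost in 5 of 21 other settings.

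In respiratory complex I, 24 of 33 tested genes were higher (72.7%, against 23.4% of all genes) and 0 lower, with a median of 0.53. In complexes II to V, 32 of 37 were higher (86.5%) and 0 lower, with a median of 0.54. Differences ran from 0.08 to 1.32 in complex I and from -0.21 to 1.31 in complexes II to V. Ndufb10 of complex I had 9.13 and 9.22 at day 2, against 8.04 and 7.82 at day 1, a 2.37-fold rise. Cox7a2l, which joins complexes into larger assemblies, rose 2.05-fold, with 13.21 on both day 2 arrays and 12.22 and 12.11 at day 1. Ndufb9 (2.50-fold) and the ATP synthase subunit Atp5a1 (2.48-fold) had the largest rises of their lists, and Cox7a2 (2.22-fold), Uqcrb (2.17-fold) and Ndufb7 (1.94-fold) also rose. The tricarboxylic acid cycle, which feeds the chain, had 17 of 20 tested genes higher (85%) and 0 lower, with a median of 0.83. Ogdh, of the oxoglutarate dehydrogenase complex, had 11.76 and 11.67 at day 2, against 10.18 and 10.27 at day 1, a 2.81-fold rise. Pdhb (2.53-fold), Sdhb (2.08-fold) and Idh3a (2.05-fold) also rose. Mdh1 rose 4.08-fold on the probe used, while a second probe was not detected on any of the 4 arrays and was not called (0.18 ± 0.23). A second Sdhb probe was not called either (0.40 ± 0.15, limma adjusted p = 0.0777).

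The regulators of mitochondria were mostly not called: of 15 tested, 2 rose (13.3%) and 3 fell (20%), with a median of -0.04. The number that fell was 5 with median scaling, 1 without day 1 replicate 2 and 0 without day 2 replicate 1. Ppargc1b, the coactivator PGC-1beta, had 11.35 on both day 2 arrays, against 9.55 and 9.59 at day 1, a 3.43-fold rise. Esrra, the nuclear receptor ERR-alpha with which it works, had 11.85 and 11.75 at day 2, against 10.76 on both day 1 arrays, a 2.05-fold rise. Those were the 2 that rose. Nrf1 was 1.40-fold lower, a call lost without day 1 replicate 2 or either day 2 replicate. The calls of Polg2 and Gabpb1, which also fell, were lost in 6 and 8 of 21 other settings. The letters TCAAGGTCA, which ERR-alpha reads, were found in 0 of 33 complex I promoters and 2 of 33 promoters of complexes II to V (6.06%), against 0.423% of all promoters and 0.294% of those of tested genes. Mitochondrial ribosomal proteins had 9 of 71 higher and 9 lower (12.7% each), against 23.4% and 25.0% of all genes. The number higher was 4 without day 1 replicate 1, and the number lower 4 or 5 without either day 1 replicate or day 2 replicate 2.

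Glycolysis was mixed, with 7 of 19 tested genes higher (36.8%), 4 lower (21.05%) and a median of 0.17. The number higher was 4 without day 2 replicate 2, and the number lower 1 or 2 without any 1 of the day 2 or day 1 arrays. Aldoc, an aldolase isoform, had 10.44 and 10.40 at day 2, against 7.80 and 7.72 at day 1, a 6.33-fold rise. Hk1, a hexokinase, rose 2.31-fold, while its relative Hk2 fell by 0.53. Pfkm rose 2.02-fold on the probe used, and 1 of its other probes was not called (0.11 ± 0.13). Of 15 tested genes of the hypoxia response, 9 were higher (60%, against 23.4% of all genes) and 2 lower (13.3%, against 25.0%), with a median of 0.50. Vegfa, the vascular growth factor, had 7.25 and 7.70 at day 2, at least 4.71-fold above its day 1 arrays, where it was not well above background. The prolyl hydroxylase P4ha2, likewise undetected on the day 1 arrays, was at least 2.76-fold higher, the histone demethylase Kdm3a rose 2.70-fold, and Ndrg1 and the mitophagy receptor Bnip3l rose 2.38-fold and 2.13-fold.

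Cholesterol biosynthesis rose, with 14 of 17 tested genes higher (82.4%), 0 lower and a median of 0.92. Hmgcs1, which makes HMG-CoA, had 12.86 and 12.79 at day 2, against 11.17 and 11.21 at day 1, a 3.11-fold rise (1.64 ± 0.11, limma adjusted p = 5.43e-05). Insig1, the sterol sensor that restrains the pathway, rose 3.51-fold, Cyp51 2.69-fold, Fdps, the enzyme that aminobisphosphonate drugs inhibit, 2.56-fold, and the lanosterol synthase Lss 2.53-fold. Fdps had 12.14 and 12.13 at day 2, against 10.71 and 10.84 at day 1. The list had moved the other way in the step before, with a median of -0.89 between day 0 and day 1, and its second-day step differed from the first-day step in 15 of 17 genes, against 44.0% of all genes.

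Iron handling was mixed, with 7 of 16 tested genes higher (43.75%) and 3 lower (18.75%). Tfrc, the transferrin receptor, had 13.98 and 13.92 at day 2, against 13.03 and 12.99 at day 1, a 1.92-fold rise. Ncoa4, which sends ferritin to the lysosome, rose 2.90-fold and Slc40a1, the iron exporter ferroportin, 3.45-fold. Slc11a1, the phagosomal metal transporter of macrophages, was 2.77-fold lower. Among 21 tested genes of amino acid metabolism and the ATF4 response, 9 rose (42.9%) and 6 fell (28.6%). Nupr1, a stress-induced chromatin protein, had 10.95 and 11.14 at day 2, against 8.41 on both day 1 arrays, a 6.20-fold rise. Ddit3, which encodes CHOP, rose 2.72-fold and Asns, the asparagine synthetase, 2.59-fold, beside the 13.6-fold rise of Chac1 given above. Cebpb, by contrast, was 2.43-fold lower. Of 17 tested aminoacyl-tRNA synthetases 4 rose (23.5%) and 3 fell (17.65%), among them Nars (1.78-fold higher) and Kars (1.65-fold lower). Over all genes the shares were 23.4% and 25.0%, so these counts do not set the list apart.

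**Figure D3:**
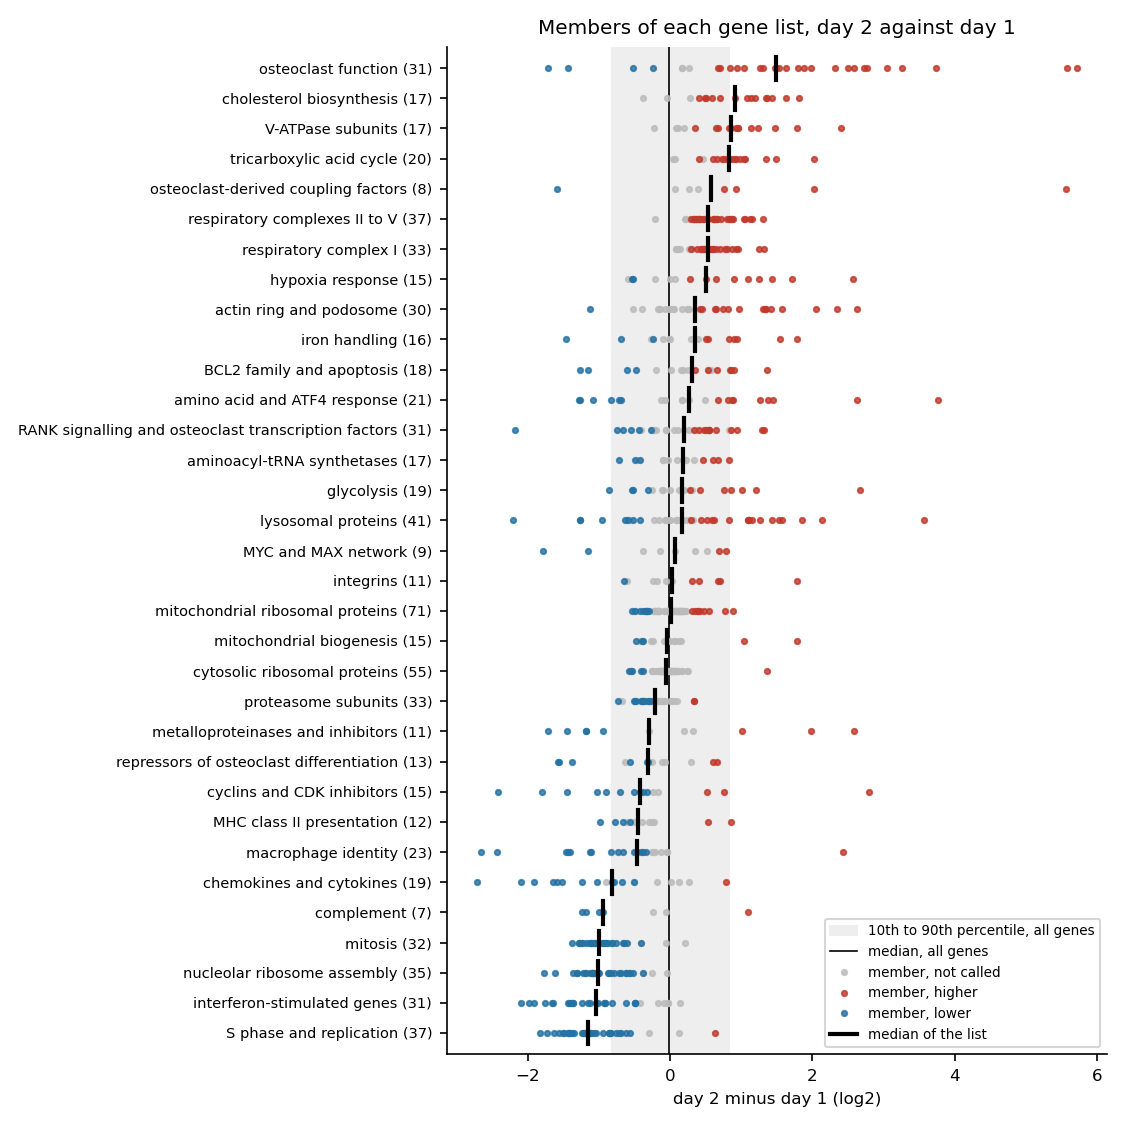
Each row is a gene list with its number of tested genes, each point a member's day 2 minus day 1 difference on the log2 scale, coloured by its call, and each black bar the list's median. The grey band spans the 10th to 90th percentile of all genes (-0.81 to 0.83), and the medians run from 1.48 for osteoclast function to -1.16 for S phase and replication.

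The genes of cell division fell almost throughout. Of 37 tested genes of S phase and replication, 34 were lower (91.9%, against 25.0% of all genes) and 1 higher, with a median of -1.16, and 24 fell by at least 2-fold. Of 32 tested mitosis genes, 29 were lower (90.6%) and 0 higher, with a median of -1.0. Mcm3, of the helicase that unwinds DNA for replication, had 8.46 and 8.21 at day 2, against 9.99 and 9.95 at day 1, which is 3.11-fold lower (limma adjusted p = 6.31e-05). Ccne2, the cyclin that starts S phase, was 3.54-fold lower, the helicase cofactor Cdc45 3.32-fold, the licensing factor Cdc6 2.95-fold and the single-strand binding protein Rpa2 2.84-fold. Chaf1b, a histone chaperone at the fork, was the member called higher (0.63). In mitosis, Prc1, which bundles microtubules at the midzone, had 11.37 and 11.35 at day 2, against 12.57 and 12.71 at day 1, which is 2.43-fold lower. Cdca8, of the complex that holds Aurora B at the centromere, was 2.59-fold lower, the kinesin Kif4 2.42-fold, the kinetochore protein Spc24 2.41-fold and the DNA topoisomerase Top2a 2.37-fold.

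The promoters of these genes are shown because short sequences are known to be common in promoters of division genes. TTTGAA, the core of the cell cycle homology region read by the DREAM complex, was found on either strand in 24 of 29 promoters of the mitosis list (82.8%), against 17.9% of all promoters and 11.9% of those of tested genes. CCAAT was found in 22 of 29 (75.9%), against 37.4% of all promoters and 37.8% of those of tested genes. The E2F-type letters TTCCCGCC and TTTGGCGC were found in 6 of 37 (16.2%) and 4 of 37 (10.8%) promoters of the S phase list, against 2.19% and 0.514% of all promoters and 3.96% and 0.829% of those of tested genes. By contrast TGANTCA, the AP-1 letters, stood in 2 of 32 promoters of the osteoclast function list (6.25%), against 7.81% of all promoters and 5.69% of those of tested genes. No test was made of these shares, and no factor was measured. In the 300-base windows below the capitals mark TTTGAA and CCAAT, on either strand, in Cdca8 (chr4:124936868-124937167, minus strand) and Prc1 (chr7:80294201-80294500, plus strand). They mark TTCCCGCC and TTTGGCGC, on either strand, in Mcm3 (chr1:20820263-20820562, minus strand). In Prc1 TTTGAA begins 5 bases and CCAAT 37 bases upstream of the start. In Cdca8 TTTGAA begins at base 14 of the transcript and shares its last letter with the last of 4 CCAAT matches, all of them on the other strand.
Cdca8: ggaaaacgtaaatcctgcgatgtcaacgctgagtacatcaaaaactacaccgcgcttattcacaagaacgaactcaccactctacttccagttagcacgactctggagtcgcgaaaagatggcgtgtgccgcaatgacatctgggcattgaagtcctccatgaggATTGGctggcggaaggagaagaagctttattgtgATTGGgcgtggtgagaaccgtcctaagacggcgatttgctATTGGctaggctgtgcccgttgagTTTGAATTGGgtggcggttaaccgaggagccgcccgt
Prc1: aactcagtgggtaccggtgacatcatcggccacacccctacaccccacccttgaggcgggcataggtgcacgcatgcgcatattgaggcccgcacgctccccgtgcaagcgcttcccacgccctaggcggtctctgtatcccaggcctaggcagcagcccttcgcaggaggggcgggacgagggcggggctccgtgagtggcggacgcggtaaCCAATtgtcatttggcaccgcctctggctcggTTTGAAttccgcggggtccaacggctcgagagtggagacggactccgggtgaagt
Mcm3: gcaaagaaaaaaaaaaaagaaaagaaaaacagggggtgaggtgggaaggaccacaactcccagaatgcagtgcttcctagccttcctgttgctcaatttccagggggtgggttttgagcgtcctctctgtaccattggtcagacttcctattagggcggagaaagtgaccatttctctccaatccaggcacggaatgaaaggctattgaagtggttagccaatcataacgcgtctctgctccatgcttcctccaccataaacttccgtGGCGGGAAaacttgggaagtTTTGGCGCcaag

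Among the cyclins and their inhibitors, 10 of 15 tested genes were lower (66.7%, against 25.0% of all genes) and 3 higher (20%, against 23.4%). Fewer were lower without day 1 replicate 1 or day 2 replicate 1. Ccnd1, the D-type cyclin that M-CSF induces in macrophages, had 11.06 and 10.94 at day 2, against 13.39 and 13.43 at day 1, which is 5.32-fold lower. Cdkn2b, the inhibitor p15, had 9.01 and 9.04 at day 2, against 6.32 and 6.15 at day 1, a 6.91-fold rise. Cdkn1a, the inhibitor p21, moved the other way and was 2.03-fold lower. E2f2, a transcription factor of S phase genes, was 3.50-fold lower and the pocket protein Rbl1 2.72-fold lower.

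Genes for building ribosomes also fell. Of 35 tested genes of nucleolar ribosome assembly, 32 were lower (91.4%) and 0 higher, with a median of -1.01. Ncl, which encodes nucleolin, had 10.12 on both day 2 arrays, against 11.77 and 11.70 at day 1, which is 3.07-fold lower (limma adjusted p = 2.34e-05). Rrp1b was 3.41-fold lower, the RNA polymerase I subunit Polr1e 2.57-fold, and Nop58 and Nop56 of the methylation complex 2.49-fold and 2.48-fold. The call for Nop58 was lost without day 1 replicate 1 or without day 2 replicate 2. Myc, a known driver of these genes, had 5.79 and 5.77 at day 2, against 7.42 and 7.72 at day 1, which is 3.46-fold lower, and Mycl was 2.22-fold lower. Over the 9 tested genes of the MYC and MAX network 2 rose, 2 fell (22.2% each, near the shares of all genes) and the median was 0.06. The cytosolic ribosomal proteins themselves showed little: 1 of 55 tested was higher and 5 lower, with a median of -0.05. The member that rose was Rpl3l (2.58-fold), a paralog of Rpl3 that is typical of muscle. Proteasome subunits had 12 of 33 lower (36.4%) and 2 higher (6.06%), with a median of -0.21. The number lower was 19 with median scaling, and 5 or 6 without either day 1 replicate or day 2 replicate 2. Psmb8, a subunit of the immunoproteasome, was 1.66-fold lower.

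Adhesion and the actin ring rose in part. Of 30 tested genes 15 were higher (50%, against 23.4% of all genes) and 1 lower (3.33%, against 25.0%), with a median of 0.35. Vcl, which encodes vinculin, had 11.28 and 11.20 at day 2, against 8.57 and 8.67 at day 1, a 6.17-fold rise. Scin, an actin-severing protein, had 12.80 and 12.71 at day 2, against 10.34 and 10.49 at day 1, a 5.07-fold rise. Rac2, a GTPase of blood cells, rose 4.15-fold, Rhou 2.97-fold and the adhesion adaptor Pxn 2.67-fold. Cav1, of caveolae, fell by 1.12. Of 11 tested integrins 5 were higher (45.45%) and 1 lower (9.09%), and fewer were higher without any 1 of the day 2 or day 1 arrays. Itga2, a collagen receptor subunit undetected on the day 1 arrays, was at least 2.11-fold higher. Itga5, of the fibronectin receptor, was 1.56-fold lower. Itgb1 was called higher (1.33-fold), with a second detected probe that was not called (-0.01 ± 0.19) and a call lost in 7 of 21 other settings.

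Metalloproteinases and their inhibitors were split, with 3 of 11 tested genes higher (27.3%) and 5 lower (45.45%). Beside Mmp14 and Mmp9, the inhibitor Timp2 rose by 1.01 on the log2 scale. Its relative Timp1 was 2.26-fold lower, with 6.65 and 6.86 at day 2 and 7.84 and 8.03 at day 1, and Mmp12, the macrophage elastase, was at least 2.10-fold lower, being undetected on the day 2 arrays. Of 8 tested genes for factors by which osteoclasts act on osteoblasts, 4 were higher (50%, against 23.4% of all genes) and 1 lower (12.5%, against 25.0%). Beside Sphk1, Lif, a cytokine of the interleukin-6 family, was undetected on the day 1 arrays and at least 2.49-fold higher, and Pdgfb rose 1.90-fold. Cxcl16 was 3.00-fold lower, with 9.99 and 10.12 at day 2, against 11.61 and 11.67 at day 1.

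The largest decrease was that of Pdpn, followed by Slpi. Pdpn, the membrane glycoprotein podoplanin, had 8.11 and 7.71 at day 2, against 11.56 and 11.71 at day 1, which is 13.2-fold lower (-3.72 ± 0.17, limma adjusted p = 1.6e-05). Slpi, a secreted inhibitor of leukocyte proteases, had 6.39 and 6.33 at day 2, against 9.67 and 9.94 at day 1, which is 10.9-fold lower. AA467197, which encodes the small protein NMES1, was 10.4-fold lower, and Dnmt3l, a cofactor of DNA methyltransferases, 9.48-fold. Socs3, the inhibitor of cytokine signalling through STAT3, had 6.68 and 6.59 at day 2, against 9.53 and 9.42 at day 1, which is 7.15-fold lower. The chemokine Cxcl14 was 6.76-fold lower, Gpr84, a receptor for medium-chain fatty acids, 6.31-fold, and Siglec1, the sialoadhesin of tissue macrophages, 6.29-fold. Olfml3, a secreted matrix protein, was 6.23-fold lower, the neuropeptide Npy 5.70-fold and Il7r, the interleukin-7 receptor, 5.68-fold. Plaur, the urokinase receptor, was 5.54-fold lower, Axl, a receptor for Gas6, 5.37-fold, and Rgcc, a regulator of the cell cycle, 5.21-fold. Dnmt3l and Siglec1 were detected on 1 of the 2 day 2 arrays.

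Genes that were not well above background on either day 2 array, and were detected on both day 1 arrays, give lower bounds. Cstdc4, a stefin-like protease inhibitor, was at least 6.77-fold lower, with 8.01 and 8.02 at day 1. Slc6a4, the serotonin transporter, was at least 4.81-fold lower, the monocyte chemokine Ccl2 at least 4.55-fold and Rgs1, which damps chemokine receptors, at least 4.19-fold. The bounds were 3.39-fold for Xrcc3, of recombination repair, 3.29-fold for Mical2, an actin-oxidising enzyme, 3.16-fold for Radx, a protector of replication forks, and 2.91-fold for Atp10a, a phospholipid flippase.

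The medians of the macrophage's immune gene lists fell, and they had also fallen from day 0 to day 1 (given below). Of 23 tested macrophage identity genes 15 were lower (65.2%) and 1 higher, with a median of -0.46, and the number lower was 9 without day 1 replicate 2. Cd14, the lipopolysaccharide coreceptor, had 9.80 and 9.84 at day 2, against 11.25 on both day 1 arrays, which is 2.70-fold lower, and the fractalkine receptor Cx3cr1 was 2.76-fold lower. The exception was Gas6, the ligand of Axl, with 9.34 and 9.36 at day 2, against 6.85 and 6.98 at day 1, a 5.41-fold rise. The ligand and its receptor Axl thus moved in opposite directions. Of 31 tested interferon-stimulated genes 25 were lower (80.6%) and 0 higher, with a median of -1.04, and 17 fell by at least 2-fold. Irf7, the transcription factor that amplifies interferon, had 7.01 and 7.18 at day 2, against 9.13 and 9.04 at day 1, which is 3.97-fold lower. Cxcl10 was 4.26-fold lower, with 7.23 and 7.13 at day 2 and 8.99 and 9.55 at day 1. Usp18, which removes ISG15, was 3.76-fold lower, and Ifit3, which binds foreign RNA, 3.15-fold. Oas3, which senses double-stranded RNA, was 3.37-fold lower on the probe used, and a second probe was not detected on these arrays.

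Chemokines and cytokines had 12 of 19 tested genes lower (63.2%, against 25.0% of all genes) and 1 higher, with a median of -0.82. Their summed linear intensity overlapped between the days (35961 to 37993 at day 2, 37256 to 38445 at day 1). Ccl5 was 3.76-fold lower and Ccl3 3.12-fold, with 7.52 and 7.47 at day 2, against 9.12 and 9.15 at day 1 for Ccl3, and Tnf fell by 1.52. The gene that rose was Cxcr4, the receptor of Cxcl12 (0.78). Complement had 4 of 7 tested genes lower (57.1%, against 25.0% of all genes) and 1 higher (14.3%, against 23.4%). The 3 chains of C1q fell, by 1.24 for C1qc, 1.19 for C1qb and 0.94 for C1qa, and C2, undetected on the day 1 arrays, was at least 1.74-fold higher. MHC class II presentation was less even, with 4 of 12 lower (33.3%, and 8 with median scaling) and 2 higher (16.7%). Its summed linear intensity was higher at day 2 (16043 to 16290) than at day 1 (12718 to 13438), so only its median fell. H2-Ab1 was 1.98-fold lower and the invariant chain Cd74 1.71-fold, while the peptide exchange factor H2-DMb1 rose 1.81-fold. Of 18 tested genes of the BCL2 family and apoptosis 7 rose (38.9%) and 4 fell (22.2%), and fewer rose without day 2 replicate 2. Bmf, which is freed from the cytoskeleton to promote death, rose 2.58-fold and Bad 1.86-fold, and Bid was 2.40-fold lower on its brighter probe, with a second probe that was not called (-0.58 ± 0.22, limma adjusted p = 0.0731).

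Some markers of cells other than macrophages and osteoclasts moved with the decreases. Of 10 tested neutrophil and granulocyte precursor markers, 7 were lower (70%, against 25.0% of all genes) and 0 higher. The number lower was 4 without background correction or with the authors' processed values, and 1 among genes detected on all 8 arrays, where fewer members are tested. Their summed linear intensity was 453 to 455 on the day 2 arrays, against 1039 to 1179 on the day 1 arrays. Members detected on at least 1 array of the day numbered 3 at day 2 and 9 at day 1, and Mpo, Elane, Prtn3, Ctsg, Ltf, S100a9 and Lcn2 were not detected at day 2. Those genes passed the detection filter only through arrays of other days and could hardly be called higher. The count lower is therefore no test of a fall of these markers. S100a8 fell most, with 7.48 and 7.51 at day 2 and 9.40 and 9.21 at day 1. Of 4 tested B lineage markers 2 were lower, with sums of 830 to 858 at day 2 and 1497 to 1506 at day 1. That sum is mostly Blnk, which myeloid cells also express. Il7r was the member called among 3 tested T and NK markers (sums of 313 to 345 at day 2 and 792 to 895 at day 1), and Pf4, a platelet chemokine, the member called of 2 erythroid and megakaryocyte markers (98.5 to 126 at day 2 and 405 to 414 at day 1). Osteoblast and stromal markers had 0 of 3 called (231 to 260 at day 2, 262 to 275 at day 1). Of 2 mast cell markers 1 was higher (89.1 to 118 at day 2, 82.6 to 95.7 at day 1), and of 4 dendritic markers 1 was higher (106 to 134 at day 2, 117 to 121 at day 1). Those calls, of Fcer1a and Zbtb46, were lost in 10 and 4 of 19 other settings, among them without day 1 replicate 2 or day 2 replicate 2. The part of such cells in the falls of the immune gene lists was not tested.

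The second-day step was then set against the steps before and after it. The steps share arrays, day 1 with the first step and day 2 with the third, so the difference of each pair was tested within the fit, which accounts for the sharing. Over all genes the median size of the difference was 0.35 from day 0 to day 1, 0.37 from day 1 to day 2 and 0.23 from day 2 to day 3, and 1155, 1189 and 158 genes were called with at least a 2-fold change. The second-day step differed from the first in 3808 genes (44.0%), and from the third in 1517 (17.5%).

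Several genes turned round between day 1 and day 2. The means of Gas6 over days 0, 1, 2 and 3 were 11.87, 6.91, 9.35 and 11.20, so its second step of 2.44 followed a first step of -4.96 (difference of steps 7.39 ± 0.15, limma adjusted p = 5.53e-06). Slc40a1 fell in the first step by 4.93 and rose in the second (difference 6.71 ± 0.27). In the other direction, Mycl, detected on 1 of the day 0 arrays, rose by 5.30 in the first step and fell by 1.15 in the second. Vegfc, a lymphatic growth factor, was detected on 0 of the day 0 arrays and both day 1 arrays and then fell by 0.97, Socs3 rose by 3.75 and then fell by 2.84, and Traf1, a signalling adaptor induced by NF-kB, rose by 5.51 and then fell by 0.55. Ch25h, which makes 25-hydroxycholesterol, was called lower in both steps, the second of which lost its call in 4 of 20 other settings (no background correction and without day 1 replicate 2 or either day 2 replicate). It was detected on 2 arrays at day 0, 1 at day 1 and 0 at day 2. Myc rose by 1.61 in the first step and fell by 1.79 in the second (difference -3.40 ± 0.23). Nucleolar assembly genes did likewise, with a median of 0.97 in the first step, and all 35 tested members had a second step that differed from the first. For S phase genes this held for 34 of 37 and for mitosis genes for 26 of 32. First-step medians there were 0.15 for S phase and -0.10 for mitosis. The medians of the immune lists had fallen in the first step too. Macrophage identity had medians of -1.32 in the first step and -0.46 in the second, MHC class II presentation -1.26 and -0.45, and complement -1.63 and -0.94. Interferon-stimulated genes had -1.01 and -1.04, and chemokines and cytokines -0.87 and -0.82.

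Against the day that followed, Mt3 had 7.25 in the second step and 0.74 in the third (difference 6.51 ± 0.15, limma adjusted p = 1.45e-05), and Oscar 5.72 and 1.01. F2r had 5.20 in the second and was not called in the third (-0.33). Of the osteoclast function genes, 24 of 31 had a second step that differed from the third, against 17.5% of all genes, and the medians were 1.48 in the second and 0.06 in the third. Some falls at day 2 were followed by a rise at day 3. For Npy (-2.51, then 0.94), Pdpn (-3.72, then 0.77) and Slpi (-3.45, then 0.58) the rise was smaller than the fall. For Htr2b, a serotonin receptor (-1.0, then 2.48), the rise was larger than the fall. The arginase Arg1, undetected at day 2, was at least 2.40-fold lower in the second step and was detected again on both day 3 arrays. Mitosis genes had medians of -1.0 in the second step and -0.78 in the third, and the steps differed in 2 of 32 genes. The early genes Ctsk, Mmp9 and Src had first steps of 5.77, 7.21 and 4.93, and each had a smaller second step (adjusted p of the difference by limma 1.4e-05, 1.24e-05 and 2.26e-05). Ctsk lay near the top of the scale at day 2, which may cap its second step, so its comparison of steps is limited. For Dcstamp, Car2, Acp5 and Nfatc1 the test did not separate the second step from the first (limma adjusted p = 0.274, 0.348, 0.293 and 0.866).

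**Figure D4:**
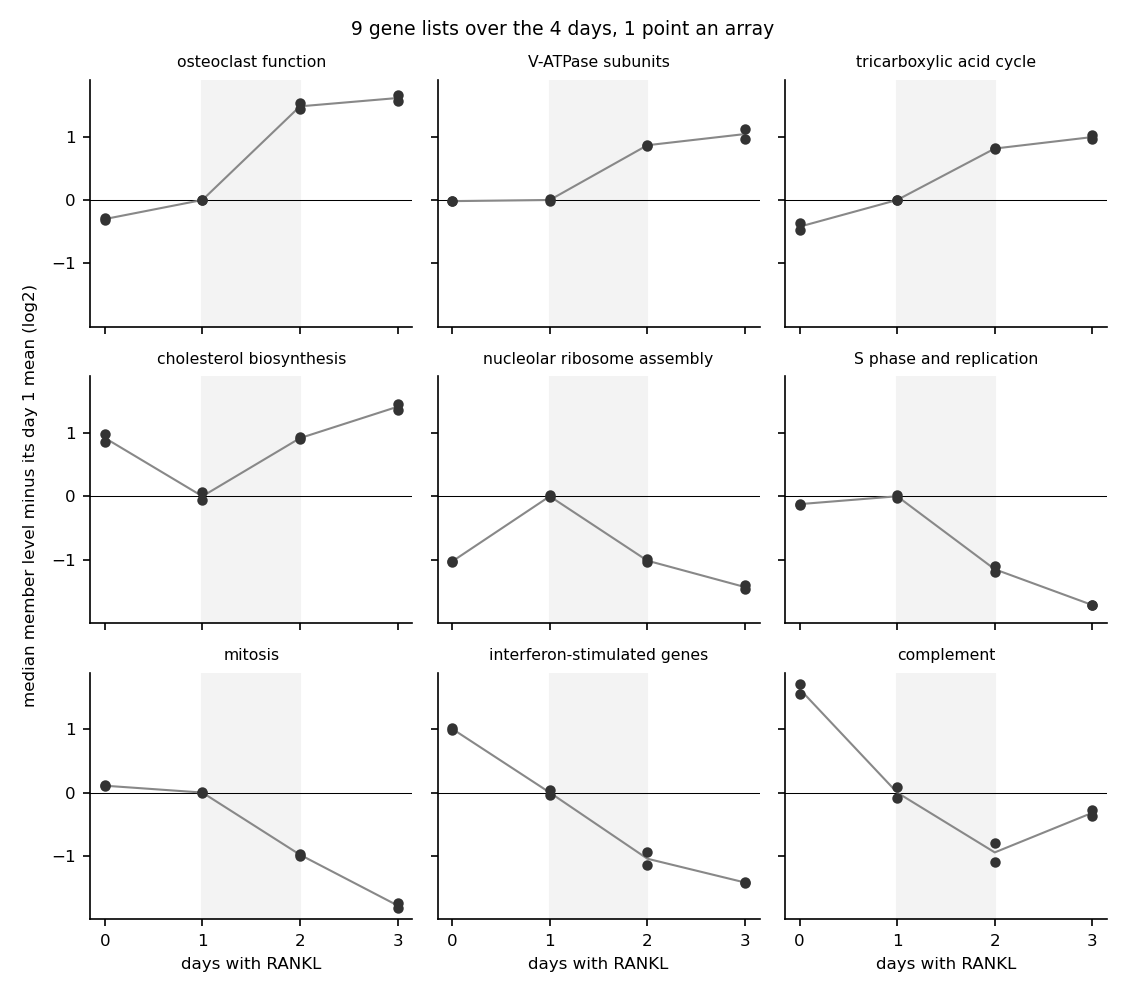
Each panel shows for 1 gene list, on each of the 8 arrays, the median over its members of the level minus that member's day 1 mean (log2), against days with RANKL, with the second-day step shaded and a line through the day means. Osteoclast function genes stood at 1.43 and 1.52 on the day 2 arrays and S phase genes at -1.10 and -1.20, while cholesterol biosynthesis and nucleolar assembly turned round at day 1.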

How the data were processed

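Expression was measured on 8 single-colour Illumina arrays, with biotin-labelled cRNA from total RNA per the labels. Each probe's intensity was deposited without background subtraction or normalisation between arrays, as read from its values, with a detection p-value per the file headers. A name of the scanner software was not given in the sources used here, and no column of unmapped samples was present. The authors' processed intensity values, on a linear scale, served as an alternative. Signals were processed with neqc of limma 3.58.1 in R 4.3.3 (normexp with negative controls inferred from detection p, offset 16, quantile normalisation, log2). Of 25697 probes, 23978 had 1 gene symbol, 0 several and 1719 none, and 23962 matched RefSeq (GRCm38.p6) by Entrez number, which changed 0 symbols. Probes detected (p under 0.05) on 2 or more arrays of the 8 were kept (12683), and the brightest stood for its gene. In 8 of 2347 genes with several kept probes, probes were called in opposite directions. Of 73 named genes with other kept probes, 89 of the 107 other probes had the same call.

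A model with 4 day groups was fitted (lmFit, then eBayes, with residual df of 4 and a median SE of 0.12), which was tested on simulated data. The number of arrays limits the precision. Genes were named by size (15 largest changes and 8 largest lower bounds in each direction, up to 5 called members per list, all osteoclast function and V-ATPase genes, 5 per step difference and direction), and other list members are given as log2 differences only, chosen after their values were seen. The 40 lists held 803 tested genes, 157 on the array and not tested and 84 not found in its table. The comparison, lists and members were chosen with earlier results of these data known, and some genes stand on more than 1 list. Figures were drawn with matplotlib 3.10.9.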

Additional observations from a re-analysis of the deposited data

Results flagged for a closer look

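Probes with no gene symbol were left out of the comparisons. Of 737 such kept probes 325 were called between day 2 and day 1, 142 higher and 183 lower (44.1%), and no sequence or gene is given for them here. The test of the difference between steps called 3808 genes for the second-day against the first-day step, 1910 with a more positive second step and 1898 with a more negative one. Against the third-day step it called 1517 genes, 823 more positive and 694 more negative in the second.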

How the results depend on the processing

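With 2 arrays a day, counts by size and step tests depend most on the settings. Under 21 other settings the counts of genes higher (2023) and lower (2169) at day 2 stayed within 1.5 times. In the 13 that did not leave out a single array, between 3549 and 4127 of the 4192 calls were shared. Fewer were shared where a day 1 or day 2 array was left out, and only leaving out an array gave a call in the opposite direction. Of 238 called named genes 216 kept their call in every setting in which they were tested, and 0 reversed while called. Genes at least 2-fold lower (559) numbered 334 by normexp without negative controls, 224 without background correction and 320 with the authors' processed values. Genes at least 2-fold higher (630) numbered 299 without background correction and 413 with the processed values. The second step differed from the third in 2290 genes without background correction, against 1517 with it. The cause of these shifts was not tested. Leaving out 1 array gave 2474 to 3794 genes for the difference from the first step and 492 to 1492 for the third. The lowest was without day 1 replicate 2 for the first. For the third they were without either day 2 replicate, then without day 1 replicate 2, then without day 1 replicate 1. In every fit that leaves out 1 array, a day rests on 1 array that is assumed to vary like the others. The part of this in the counts was not tested. Same-numbered arrays showed no shared deviation across genes (r of deviations of same-numbered day 2 and day 1 arrays 0.0079, over 6 pairs of days -0.08 to 0.07). Such an r cannot show whether they come from 1 culture or mouse. With a replicate block 1967 genes were higher and 2116 lower. Median scaling shifted the median of all genes to -0.13. The medians of 6 lists changed sign in some setting (integrins, mitochondrial biogenesis, mitochondrial ribosomal proteins, the MYC and MAX network, mast cell and dendritic markers). Counts of called members moved with the settings most in mixed or small lists (proteasome 5 to 19 lower, macrophage identity 9 to 16 lower, neutrophil markers 1 to 7 lower, mitochondrial biogenesis 0 to 5 lower). They ranged from 16 to 24 higher for osteoclast function, 12 to 13 for V-ATPase, 32 to 35 lower for S phase, 26 to 29 for mitosis and 28 to 32 for nucleolar assembly. The headers name no slide, so a slide block was not run. Signal near background leaves bounds in place of folds for some genes.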
